A study of Homo sapiens with 6 samples.

Results

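The subject here is a set of 10 genes of the endoplasmic reticulum (ER) folding machinery, followed in K562 cells, a human chronic myelogenous leukemia line. They were 9 chaperones and folding enzymes of the ER (HSPA5, HSP90B1, CALR, CANX, PDIA3, PDIA4, PDIA6, P4HB and DNAJB9) and XBP1, a transcription factor that induces many of them. The genes were taken by name and not by a cut on their measured values, though earlier results of these data were known. All 10 symbols were found among 37339 transcripts that could be matched to GENCODE. Each was represented by 1 counted transcription unit (TU).

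The cells were untreated and were grown in RPMI-1640 medium with serum, and per the study's methods all libraries came from cells of the same flask. Steady-state RNA was measured in 4 total RNA-seq libraries depleted of ribosomal RNA. Nascent transcription was measured in 2 PRO-seq libraries, an assay that sequences RNA still being made by engaged RNA polymerases. The comparison of the assays addresses how much RNA a gene holds beside its nascent transcription, and the study takes the RNA-seq value over the PRO-seq value as a relative half-life. The study found such estimates from these libraries more variable than those from earlier K562 data, and less close to published ones. Its main analyses therefore rest on the earlier data. PRO-seq counts engaged polymerases, which depend on the speed of elongation as well as on the rate of transcription, so a PRO-seq level is not a rate.

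Proteins of the secretory pathway enter the ER unfolded. HSPA5 (BiP) binds them as an Hsp70 and HSP90B1 (GRP94) acts as the ER form of Hsp90, while CALR and CANX hold glycoproteins through their sugars. The protein disulfide isomerases PDIA3, PDIA4, PDIA6 and P4HB form and rearrange disulfide bonds. When unfolded proteins accumulate, the sensors ERN1, EIF2AK3 and ATF6 start the unfolded protein response. ERN1 then splices the XBP1 mRNA, and XBP1 and ATF6 switch on chaperone genes through ER stress elements in their promoters.

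Counts on TUs ranged from 5732780 to 9002746 in the RNA-seq libraries and were 6993816 and 7245632 in the PRO-seq libraries. The 4 RNA-seq libraries fell into pairs, replicates 1 and 3 and replicates 2 and 4, whose counts differed least within a pair (chi-square per degree of freedom 1.13 and 1.12, against 1.75 to 2.13 for the other RNA-seq pairs). The labels name no batch, and leaving out either pair left the calls for the 10 genes as they were, 8 above the median mRNA and 1 below. All 8 erythroid and megakaryocytic markers of the line were present, at 13.2 to 3104 RNA-seq TPM. Of 8 markers of lymphoid cells and of plasma cells, the latter with an enlarged ER, 2 exceeded 1 RNA-seq TPM and the highest stood at 1.45. MZB1, a plasma cell protein of the ER, was at 0 in RNA-seq and at 32.3 PRO-seq TPM, on 27 reads.

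All 10 genes had counts in every library and passed the thresholds applied to every TU (over 10 PRO-seq TPM and over 1 RNA-seq TPM). TPM is the count of a TU per base of its length, scaled to the same sum over all TUs in every library. The length was that of the exons for RNA-seq and that of the genomic span less 1000 bp for PRO-seq. Because TPM is relative within an assay, the RNA-seq to PRO-seq ratio of each TU is given on the log2 scale against the median mRNA, which stands at 0. Both assays average over a bulk of cells, so more cells expressing a gene and more RNA per cell cannot be told apart.

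All 10 genes had a PRO-seq TPM above that of the median mRNA, and most had an RNA-seq TPM further above it. RNA-seq was above PRO-seq, relative to the median mRNA, for 8 of the 10 genes (edgeR, adjusted p under 0.05), below it for HSPA5, and not distinguishable from it for DNAJB9. Among all 9929 TUs tested, 40.4% were called above and 50.0% below. Among the 8733 mRNAs alone the shares were 45.4% and 44.9%, so a call by itself is common in these data. The median log2 relative half-life of the 10 genes lay 1.68 above that of the mRNAs. The interquartile range of the mRNAs was -1.06 to 1.08, with 7 of the 10 genes above it, HSPA5 below it, and XBP1 and DNAJB9 inside it. Together the 10 genes made up 0.379% of RNA-seq TPM and 0.194% of PRO-seq TPM.

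**Figure D1:**
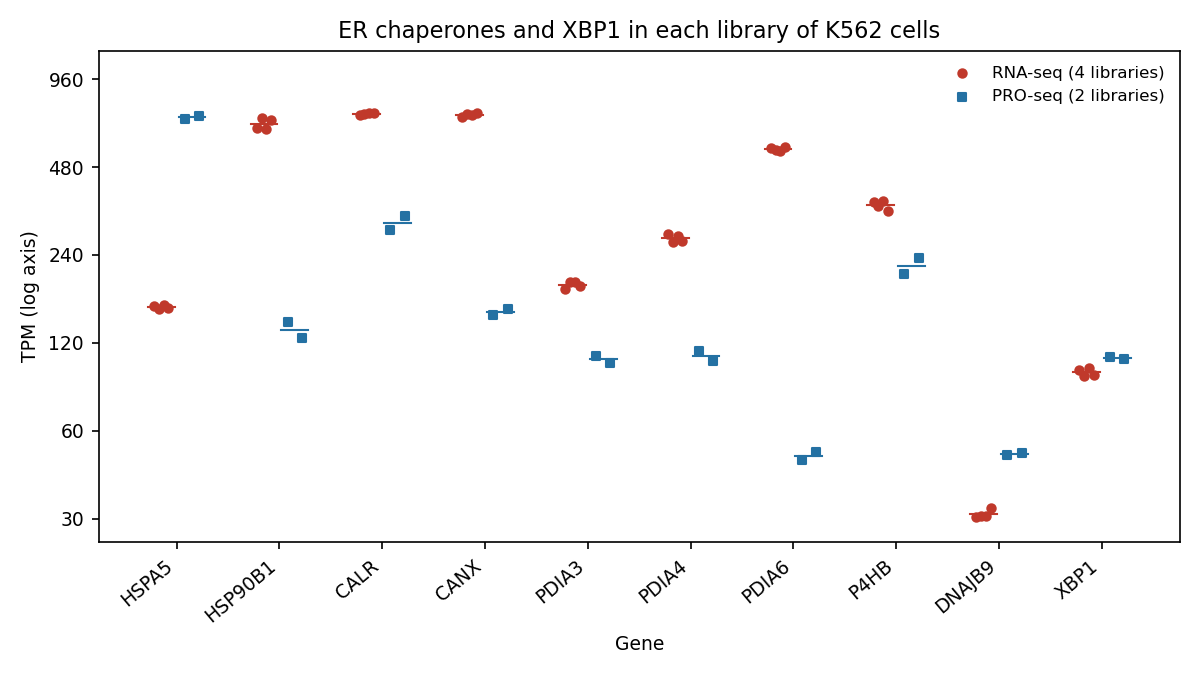
TPM on a log axis for each of the 10 genes, with 1 point per library and a bar at the mean of the 4 RNA-seq (circles) or 2 PRO-seq (squares) libraries. HSPA5 had the highest PRO-seq TPM and the eighth RNA-seq level, whereas PDIA6, at 545.0 to 562.4 RNA-seq TPM, had the lowest PRO-seq TPM with the counted lengths (49.2, against 92.1 with canonical lengths).

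HSPA5 stood apart from the other chaperones. HSPA5 (chr9:125234853-125241343, GRCh38.p14, minus strand, 8 exons) had 702.9 and 717.8 TPM in the 2 PRO-seq libraries. In the 4 RNA-seq libraries it had 159.9, 157.0, 161.9 and 158.2 TPM. The replicates of each assay lay close together, and their spread was small beside the difference between assays. HSPA5 had the highest PRO-seq TPM of the 10 genes, 2.30-fold that of CALR, the next, and stood at the 99.1st percentile of mRNAs. Its RNA-seq TPM was at the 88.1st percentile, below that of 7 of the other genes. Relative to the median mRNA its RNA-seq signal was 2.87-fold lower than its PRO-seq signal (log2 -1.52, SE 0.046, adjusted p = 8.0e-24), which put its relative half-life at the 17.0th percentile. Each RNA-seq library was also set against each PRO-seq library, and over these 8 combinations the ratio ranged from -1.55 to -1.50. Of the 78 mRNAs with a PRO-seq TPM at least that of HSPA5, itself included, 23 had a lower relative half-life.

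HSP90B1, its partner chaperone of the Hsp90 family, showed the opposite. HSP90B1 (chr12:103930410-103947926, plus strand, 18 exons) had 652.6, 705.4, 645.7 and 693.2 RNA-seq TPM. Its PRO-seq TPM was 141.4 and 124.5. Replicates 2 and 4 of RNA-seq were higher than replicates 1 and 3, the same pairs as in the comparison of whole libraries, by 0.11 on the log2 scale. The RNA-seq to PRO-seq ratio was 7.89-fold above that of the median mRNA (log2 2.98, SE 0.053, adjusted p = 7.8e-30). Its range over the 8 library combinations, 2.81 to 3.15, was the widest of the 10 genes. HSP90B1 thus held 4.25-fold the RNA-seq TPM of HSPA5, whose PRO-seq TPM was 5.35-fold that of HSP90B1.

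DNAJB9 (ERdj4), a J-domain co-chaperone of HSPA5 and a classical target of XBP1, was the least abundant as RNA. DNAJB9 (chr7:108569874-108574850, plus strand, 3 exons) had 30.42, 30.75, 30.67 and 32.69 RNA-seq TPM, with replicate 4 highest. The 2 PRO-seq libraries gave 49.59 and 50.56 TPM. Both levels were close to those of the median mRNA, 31.2 RNA-seq and 47.5 PRO-seq TPM. The log2 ratio was -0.05 (SE 0.146, adjusted p = 0.75). It rested on 1018 RNA-seq and 104 PRO-seq reads, the fewest of the 10 genes, so a small difference was not detectable at this depth.

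The lectin chaperones that retain glycoproteins for folding were the 2 most abundant RNAs. CALR (calreticulin, soluble, chr19:12938609-12944489, plus strand, 9 exons) had 723.3, 727.6, 735.7 and 735.2 RNA-seq TPM and 291.6 and 325.7 PRO-seq TPM. CANX (calnexin, its membrane-bound relative, chr5:179678656-179731641, plus strand, 15 exons in the counted TU) had 713.1, 726.5, 723.1 and 732.7 RNA-seq TPM and 149.7 and 156.5 PRO-seq TPM. Their RNA-seq levels overlapped between libraries, at the 98.1st and 98.0th percentiles of mRNAs. Their PRO-seq levels did not overlap, with CALR 2.02-fold above CANX. The ratio was therefore larger for CANX, 7.35-fold above the median mRNA (log2 2.88, SE 0.037, adjusted p = 1.8e-33), than for CALR, 3.68-fold above it (log2 1.88, SE 0.051, adjusted p = 4.5e-25). The 8 library combinations gave 2.84 to 2.90 for CANX and 1.81 to 1.95 for CALR, without overlap. PDIA3 (ERp57), the disulfide isomerase that both lectins recruit, was lower on every scale. PDIA3 (chr15:43746438-43773278, plus strand, 13 exons) had 183.8, 193.3, 193.3 and 187.4 RNA-seq TPM, 108.5 and 102.2 PRO-seq TPM, and a log2 ratio of 1.48 (SE 0.050, adjusted p = 1.2e-22).

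The other disulfide isomerases spread widely, and PDIA6 had the highest relative half-life of the 10 genes. PDIA6 (P5, chr2:10783391-10837712, minus strand, 14 exons) had 556.4, 548.3, 545.0 and 562.4 RNA-seq TPM. Its PRO-seq TPM was 47.76 and 50.64. Its PRO-seq TPM was thus at the 51.8th percentile of mRNAs and its RNA at the 97.3rd. The log2 ratio was 4.13 (SE 0.046, adjusted p = 5.2e-35), 17.5-fold above the median mRNA, and at the 99.2nd percentile. The size of this ratio depends on the TU counted. The counted transcript of PDIA6 spans 54117 bp, whereas the canonical transcript spans 29395 bp, and with the canonical lengths the PRO-seq TPM was 1.87-fold higher and the ratio was 3.20. Here and below, values with canonical lengths change the lengths alone, and the reads were not counted again.

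PDIA4 (ERp72, chr7:149003051-149028505, minus strand, 10 exons) had 284.0, 265.5, 279.1 and 267.9 RNA-seq TPM and 112.6 and 103.7 PRO-seq TPM. Its log2 ratio was 1.98 (SE 0.052, adjusted p = 1.8e-25). P4HB (PDI itself, which is also the beta subunit of prolyl 4-hydroxylase, chr17:81843166-81860535, minus strand, 11 exons) had 365.5, 352.3, 366.1 and 338.6 RNA-seq TPM and 206.1 and 233.8 PRO-seq TPM. Its PRO-seq percentile, 95.5, and its RNA-seq percentile, 95.1, were nearly equal, yet the ratio was still 2.52-fold above the median mRNA (log2 1.33, SE 0.050, adjusted p = 2.2e-21). PDIA4 and PDIA3 had PRO-seq levels within 1.03-fold of each other, and the RNA-seq level of PDIA4 was 1.45-fold that of PDIA3. The counted transcript of P4HB is annotated as a target of nonsense-mediated decay. Its summed exon length exceeds that of the canonical one by 48 bases, and the spans are 17438 and 17370 bp.

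XBP1, the transcription factor, was at the 61.8th percentile of mRNAs in relative half-life. Its RNA-seq and PRO-seq TPM ranked higher, at the 79.7th and 83.3rd percentiles. XBP1 (chr22:28794560-28800569, minus strand, 5 exons) had 97.02, 92.72, 98.30 and 92.88 RNA-seq TPM. It had 107.4 and 105.3 PRO-seq TPM, a level that overlapped those of PDIA3 and PDIA4. Its RNA-seq level was below that of every chaperone but DNAJB9, and 1.67-fold below that of HSPA5. The ratio was 1.39-fold above the median mRNA (log2 0.48, SE 0.091, adjusted p = 1.7e-05), on 2392 RNA-seq and 280 PRO-seq reads. Against a difference of at least 2-fold XBP1 was not called (adjusted p = 1.0), while the 7 chaperones above the median mRNA and HSPA5 still were. The spliced and unspliced forms of its mRNA differ by a short intron and share 1 count here, so splicing by ERN1 was not measured.

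Ordered by relative half-life, the genes ran PDIA6, HSP90B1, CANX, PDIA4, CALR, PDIA3, P4HB, XBP1, DNAJB9 and HSPA5. Of the 9 neighbouring pairs, HSP90B1 and CANX, PDIA4 and CALR, and PDIA3 and P4HB had overlapping ranges over the 8 library combinations, and the other pairs did not overlap. With the canonical lengths the range of PDIA6, 3.14 to 3.24, met that of HSP90B1. From lowest to highest the 10 genes differed 50.2-fold in relative half-life, against 23.5-fold in RNA-seq TPM and 14.4-fold in PRO-seq TPM. With canonical lengths the ranges were 26.3-fold, 23.5-fold and 14.2-fold. Relative half-life thus still had the widest range, but its margin over RNA-seq TPM was small and depended on the span of PDIA6. With the counted lengths the SD of their log2 half-lives was 1.63, and that of all mRNAs 1.68.

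The order in PRO-seq was not the order in RNA-seq. In PRO-seq it ran HSPA5, CALR, P4HB, CANX, HSP90B1, PDIA4, XBP1, PDIA3, DNAJB9 and PDIA6. In RNA-seq it ran CALR, CANX, HSP90B1, PDIA6, P4HB, PDIA4, PDIA3, HSPA5, XBP1 and DNAJB9. Neighbours overlapped between libraries for CALR and CANX in RNA-seq, and in PRO-seq for PDIA4 with XBP1, XBP1 with PDIA3, and DNAJB9 with PDIA6. With the counted lengths DNAJB9 and PDIA6 had nearly the same PRO-seq TPM, 50.1 and 49.2, beside 31.1 and 553.1 RNA-seq TPM. With canonical lengths PDIA6 was at 92.1 PRO-seq TPM, above DNAJB9. All 10 genes were above the median mRNA in PRO-seq and 9 of them in RNA-seq.

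**Figure D2:**
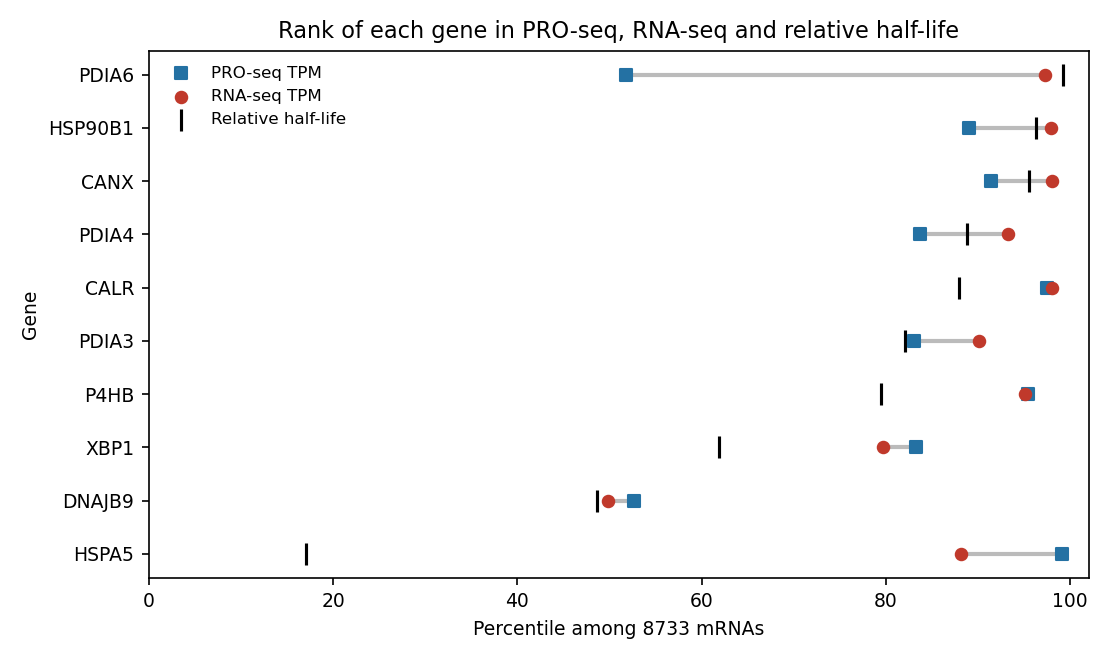
Percentile of each gene among 8733 mRNAs in PRO-seq TPM (squares), RNA-seq TPM (circles) and relative half-life (vertical ticks), with the genes ordered by relative half-life. The gray bar joins the PRO-seq and RNA-seq percentiles, which lie 51.8 and 97.3 for PDIA6 and 99.1 and 88.1 for HSPA5.

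The same ratios can be read as RNA-seq levels among mRNAs of similar PRO-seq level. Among the mRNAs within 0.5 log2 units of its PRO-seq TPM, PDIA6 was at the 99.5th percentile of RNA-seq TPM (2817 mRNAs, median 32.9 TPM). HSP90B1 was at the 96.6th of 1279 mRNAs and CANX at the 96.1st of 1010. PDIA4, PDIA3, CALR and P4HB lay between the 79.1st and 89.2nd percentiles, XBP1 at the 65.2nd and DNAJB9 at the 47.2nd. HSPA5 was at the 19.2nd percentile of the 73 mRNAs near its PRO-seq TPM, whose median RNA-seq TPM was 653.4. These ranks restate the ratios above in other terms and are no independent measure.

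**Figure D3:**
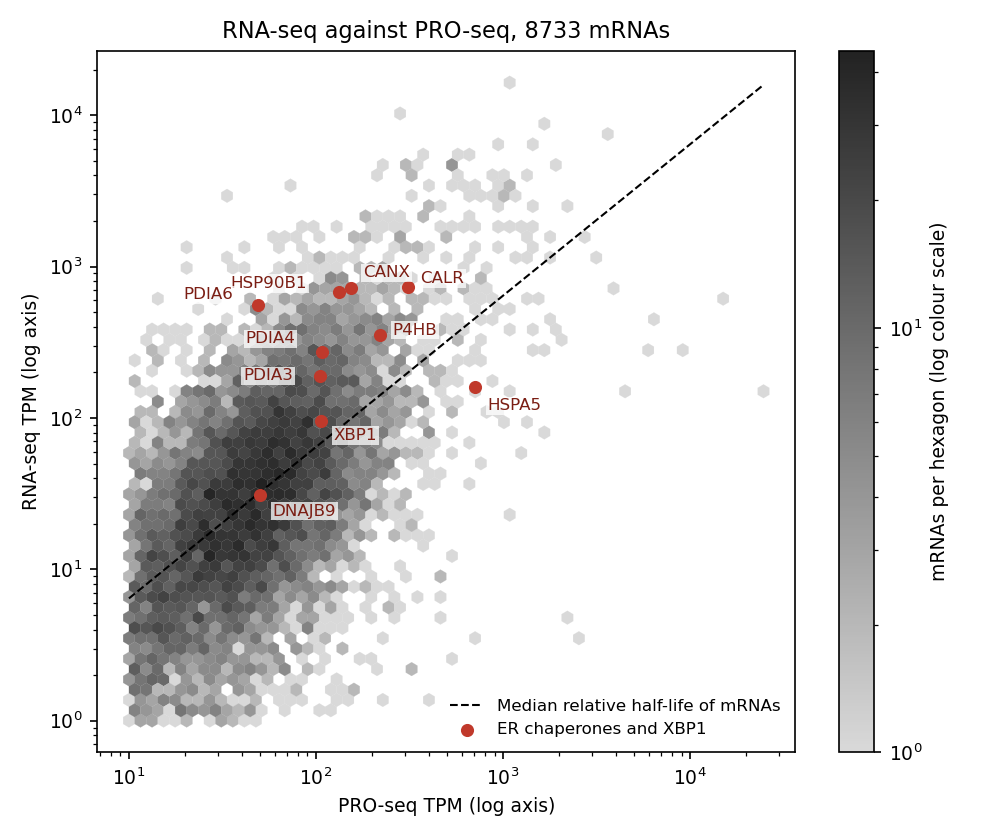
RNA-seq TPM against PRO-seq TPM on log axes, with 8733 mRNAs as shaded hexagons and the 10 genes as red points. The dashed line marks the median relative half-life of mRNAs. HSPA5 lies below the line, DNAJB9 on it and the other 8 genes above it.

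The 3 genes with the lowest relative half-lives, and CALR, are short genes. HSPA5, DNAJB9, XBP1 and CALR span 6491, 4977, 6043 and 5881 bp, at or below the 11.7th percentile of mRNAs (median 29515 bp), and the other 6 span 17438 to 54117 bp. Exons filled 60.4% of the span of HSPA5 and 48.4% of that of DNAJB9, against 4.13% for PDIA6. Among mRNAs of similar span (within 0.5 log2 units) HSPA5 was at the 23.8th percentile of relative half-life and at the 97.1st of PRO-seq TPM, CALR at the 82.1st of relative half-life, XBP1 at the 59.3rd and DNAJB9 at the 48.7th. The median relative half-life of those mRNAs of similar span differed from that of all mRNAs by -0.05 to 0.02 for the 4 genes. Exon junctions per kb of mRNA ranged from 0.83 for DNAJB9 and 1.79 for HSPA5 to 5.81 for PDIA6 and 6.11 for HSP90B1, with 3.08 for the median mRNA. These are values for 10 genes chosen together, and no test was made of them.

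Promoters of the genes were searched for the elements through which the unfolded protein response acts. The ER stress element, ERSE, is CCAAT, then 9 bases of any kind, then CCACG, and it was sought on both strands in windows of 250 bases before to 50 bases after each start site in the RefSeq table for GRCh38.p14. Of 27305 genes with such a window 25 (0.0916%) held an ERSE, and 6 of them were among the 9 genes here with a window. The sites are shown as a description of 6 of the genes. Chaperone genes are known to be switched on through such elements, so their number among these genes is no independent result. Capitals mark the letters searched for, each sequence is written in the direction of the element, and distances run from the first base of the site in the gene's direction to the start site.
HSPA5: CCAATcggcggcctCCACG
XBP1: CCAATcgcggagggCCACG
HSP90B1, distal: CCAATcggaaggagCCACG
HSP90B1, proximal: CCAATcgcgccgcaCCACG
CANX: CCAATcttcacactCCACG
CALR: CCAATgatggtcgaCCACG
PDIA6: CCAATgagccgcagCCACG

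The site of HSPA5 lies at chr9:125241391-125241409 (minus strand), 66 bases upstream, and that of XBP1 at chr22:28800603-28800621 (minus strand), 52 bases upstream. HSP90B1 has one at chr12:103930216-103930234 (plus strand), 194 bases upstream, and one at chr12:103930321-103930339 on the opposite strand, 89 bases upstream. The site of CANX lies at chr5:179698778-179698796 (plus strand), 151 bases upstream of the start site at 179698929. CANX has 4 start sites in the table, and this site overlaps the one at 179698787 and lies downstream of the one at 179698427. That of CALR is on the strand opposite the gene, at chr19:12938384-12938402, 225 bases upstream. The site of PDIA6, at chr2:10812853-10812871 (minus strand), is 86 bases upstream of the inner of 2 start sites, at 10812785.

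The inner start of PDIA6 lies within the counted TU, so the PRO-seq length of 53117 bases includes sequence upstream of that start. The windows of P4HB, PDIA4 and DNAJB9 held no match to these letters. The second ER stress element (ATTGG, 1 base of any kind, CCACG) was found in 19 genes and the element TGACGTGG in 253 genes (0.927%), none of them among the 9. The genes with an ERSE covered the range of relative half-lives, from -1.52 for HSPA5 to 4.13 for PDIA6. Of the 19 other genes with an ERSE, 7 passed the thresholds, of which 3 were called above the median mRNA and 3 below. Those above were SERP1, a translocon-associated stress protein, at 2.60, CRELD2, an ER-resident folding factor, at 2.06, and EIF2A at 1.20. Those below were ALG12 at -1.76, FICD, the enzyme that AMPylates HSPA5, at -1.63, and ERO1B at -0.81. TMEM120A, at -0.10, was not called.

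The pathway around these genes was described with 5 lists of genes, each given by its counts of calls. Of 34 other ER chaperones and foldases 27 passed the thresholds, with 21 above the median mRNA, 6 below and a median log2 ratio of 0.89. PPIB (cyclophilin B, an ER prolyl isomerase) had 1001 to 1061 RNA-seq TPM, 177.0 and 198.1 PRO-seq TPM and a ratio of 3.09 (SE 0.058, adjusted p = 2.7e-29). SERPINH1 (HSP47, the collagen chaperone) was at 2.38. At the other end TXNDC12, a thioredoxin-like protein of the ER, was at -1.04 and FKBP14, a prolyl isomerase, at -0.98. TXNDC12 had only 284 RNA-seq reads, and its TU encloses the gene KTI12 on the same strand, with 622 RNA-seq reads.

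The regulators of the unfolded protein response lay lower than the chaperones. Of 23 sensors, regulators and transcription factors 20 passed the thresholds, with 6 above the median mRNA, 13 below and a median of -0.63. With canonical lengths, which changed 5 of the 20 and left the reads as counted, the median was -1.01 and 5 were positive and 15 negative. DDIT3 (CHOP) then moved from 0.22 to -0.22 and TRIB3, a pseudokinase it induces, from 1.05 to -1.18. The sensor ERN1 (IRE1) had 4.29 to 5.63 RNA-seq TPM, 33.5 and 35.5 PRO-seq TPM and a ratio of -2.24 (SE 0.080, adjusted p = 7.7e-22), and EIF2AK3 (PERK) was at -0.68. ATF6, the sensor that becomes a transcription factor by cleavage, was at 0.83, and its relative ATF6B at -1.72. ATF4, translated when EIF2AK3 is active, was at -1.77, and PPP1R15A, which restores translation, at -1.34. By the naming rule the lowest were CREB3L1 at -2.67 and CREB3L2 at -2.37, both ER-anchored transcription factors. The highest were CREB3, of the same family, at 2.16 and RTCB, the ligase that joins the XBP1 exons, at 2.75. The value of CREB3 rests on only 30 PRO-seq reads (SE 0.207). The other genes given here, namely ERN1, EIF2AK3, ATF6, ATF6B, ATF4, PPP1R15A, DDIT3 and TRIB3, were named after their values were seen.

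Of 26 genes of ER-associated degradation, which returns misfolded proteins to the cytosol, 25 passed, with 16 above, 7 below and a median of 0.34. OS9, a lectin that delivers substrates, was at 3.25 and RNF5, a ubiquitin ligase, at 2.22, on only 58 PRO-seq reads. HERPUD1, an ER stress-induced scaffold of the degradation complex, had 7.60 to 8.74 RNA-seq TPM, 82.1 and 85.8 PRO-seq TPM and a ratio of -2.74 (SE 0.108, adjusted p = 8.1e-21). SYVN1 (HRD1), its ubiquitin ligase, was listed at -5.64 on only 14 RNA-seq reads. Its counted transcript of 656 exonic bases is not the canonical one of 3038 bases, and it overlaps FAU on the same strand, so that value is uncertain.

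Genes that bring proteins into the ER and glycosylate them had the highest median of the 4 ER lists, 2.32. Of 31 genes 29 were counted and 27 passed, with 24 above and 3 below. SEC63 and SRPRA, which act in translocation and targeting, were at -1.73 and -1.58. TUSC3, an oligosaccharyltransferase subunit, was at 4.60 and SSR1, of the translocon-associated complex, at 3.63. For both, the counted transcript was shorter in exons than the canonical one, and with canonical lengths TUSC3 was at 2.08 and SSR1 reversed to -0.95. For SSR1 the reads counted on 585 exonic bases were divided by 9661 bases, so the reversal is no measurement of the canonical transcript. The counted TU of SSR1, with a span of 46114 bp, also overlaps CAGE1 on the same strand by 20788 bp. CAGE1 held 35 RNA-seq and 117 PRO-seq reads, and the part of this overlap in the ratio of SSR1 was not tested. In this list 14 of the 27 counted transcripts were not canonical, and the median with canonical lengths was 2.20.

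The cytosolic and mitochondrial counterparts of the chaperones lay above the median mRNA. Of 14 such genes 13 were counted and 11 passed, with 11 above, 0 below and a median of 2.14. With canonical lengths 10 of the 11 were positive, DNAJB1 (Hsp40) being the exception at -2.11, and the median was 1.89. HSPA8, the cytosolic Hsp70 relative of HSPA5, had 3686 to 3825 RNA-seq TPM and 1262 and 1385 PRO-seq TPM. Its ratio was 2.14 (SE 0.036, adjusted p = 1.5e-30), against -1.52 for HSPA5. HSP90AB1, a cytosolic relative of HSP90B1, was at 2.65, against 2.98 for HSP90B1. With canonical lengths HSPA8 was at 1.89 and HSP90AB1 at 2.48, whereas the counted transcripts of HSPA5 and HSP90B1 are the canonical ones. HSP90AA1, the stress-inducible cytosolic Hsp90, was at 5.25 with the counted span of 58638 bp and at 1.93 with the canonical lengths (6303 bp). TXN, the cytosolic thioredoxin, was at 3.51, HSPH1, a nucleotide exchange factor of Hsp70, at 0.76 and TXN2, the mitochondrial thioredoxin, at 0.47. HSPA8, HSP90AB1 and DNAJB1 were named after their values were seen.

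Likeness to HSPA5 and to XBP1 was sought among the 8723 mRNAs with counts in all 6 libraries, the 10 genes included. The levels nearest to those of HSPA5 over the 6 libraries were those of ATF4, as counted. Likeness was measured as the root mean square difference of log2 TPM, which was 0.20 for ATF4, 0.26 for PDCD2, a programmed cell death gene, and 0.32 for SLC38A2, an amino acid transporter. ATF4 had 165.2 RNA-seq and 878.1 PRO-seq TPM, against 159.0 and 710.4 for HSPA5. The 3 mRNAs differed from the median mRNA by -1.77, -0.98 and -1.62. For XBP1 the nearest were USP7, a ubiquitin-specific protease, at 0.039, TMEM183A at 0.059 and SGMS1, a sphingomyelin synthase, at 0.069. The counted transcript of ATF4 is not the canonical one, and with canonical lengths ATF4 was at 1557 PRO-seq TPM and at 0.76 from HSPA5, farther than PDCD2 and SLC38A2. With canonical lengths TMEM183A, at 0.036, came nearer to XBP1 than USP7, at 0.060. Likeness here is a matter of level alone, over libraries of 1 condition.

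Reads shared with copies could bear on 2 of the genes. Of the 75-base stretches of the counted PDIA3 mRNA, 14.5% also occur elsewhere in the genome (GRCh37), and the processed pseudogene PDIA3P1 held 411 RNA-seq reads. For HSPA5 the share was 4.97%, and its pseudogene HSPA5P1 held 4 RNA-seq and 3 PRO-seq reads. The other 8 genes had shares of 0.21% to 2.07%. Their part in the ratios was not tested. Genes on the opposite strand overlap PDIA3 (ELL3 by 659 bp and an unnamed coding gene by 662 bp) and PDIA6 (ATP6V1C2 by 1250 bp). They held few reads, 1 RNA-seq read for ELL3, 44 PRO-seq reads for the unnamed gene, and 14 RNA-seq and 16 PRO-seq reads for ATP6V1C2.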

How the data were processed

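For each library the authors deposited raw HTSeq read counts per transcript, without normalization, and per the labels the reads were trimmed with cutadapt and aligned with HISAT2 to GRCh38. The versions of these tools, and whether counting used strand, are not stated in the sources used here. The labels name the longest transcript and 500 bp left out for PRO-seq. Records naming no TU (66.5% to 68.6% of an RNA-seq library, 86.5% and 88.6% of a PRO-seq library) were left out.

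Transcript identifiers were joined to GENCODE lifted to GRCh37 (88.1% of 42371 matched), which gave lengths and classes. Printed coordinates are those of RefSeq tables for GRCh38.p14. The main test was edgeR 4.0.16 (quasi-likelihood, TMM, length offsets, R 4.3.3) of RNA-seq against PRO-seq over 9929 TUs of mRNAs, lincRNAs, antisense RNAs and pseudogenes, centered on the median mRNA, with Benjamini-Hochberg adjustment. On simulated data for this comparison 92% of 200 changed TUs were recovered, with 9 false calls. The simulation gave all TUs the same dispersion and left the others at the median mRNA. In the data most TUs were called, so these rates need not hold for them. DESeq2 1.42.0 and other settings were alternatives. The p-values measure the spread between libraries from 1 flask, which may be technical.

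The 10 genes, lists and markers were chosen with earlier results of these data known. Beside the 10 genes, the rule named from each list the 2 highest and 2 lowest called genes, and the 3 mRNAs nearest in level to HSPA5 and to XBP1. Canonical transcript lengths were added as an alternative after the data were seen. They were set gene by gene with the zero kept, and applied to all mRNAs they would put the median mRNA at -0.18. The reads stayed those of the counted transcript, so counts and lengths need not match. Promoters came from RefSeq, for 9 of the 10 genes.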

Additional observations from a re-analysis of the deposited data

Results flagged for a closer look

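Of 36 genes examined, the 10 and the 26 others named by rule, 1 had an RNA-seq library apart from the others of its group. For DNAJB9 the gap of RNA-seq replicate 4 to the nearest of the others, divided by the range of the 4 libraries on the log2 scale, was 0.852, over Dixon's 95% critical value for 4 samples. That library had 32.7 TPM, against 30.4 to 30.7 TPM in the other 3. Chance flags about 1 in 20 such groups.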

How the results depend on the processing

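HSPA5 stayed below the median mRNA, and the 7 chaperones called above it stayed above in every alternative run. The calls of DNAJB9 and XBP1 depended on the setting. With at least 1 summed count in place of the TPM thresholds, DNAJB9 rose to 0.61 (adjusted p = 0.00013), 6634 TUs were above and 7597 below, and the median of the 10 genes was 2.31. More TUs were tested there, and the median mRNA that sets the zero is another one. DNAJB9 was at 0.0696 with at least 10 counts (adjusted p = 0.66) and at 0.0707 with 500 bp removed for PRO-seq (adjusted p = 0.65). Testing for a 2-fold difference left 2138 TUs above, 2898 below and 7 of the 10 genes above, without XBP1, and 8 other named genes lost their call. The median of the 10 genes was 1.66 with a pseudocount of 1 TPM and 1.71 with 500 bp removed. With canonical lengths and the reads as counted, SSR1 reversed to -0.95, DDIT3 to -0.22, TRIB3 to -1.18 and DNAJB1 to -2.11. DESeq2 gave 3887 above and 4815 below. Leaving out each library in turn gave 3872 to 4004 TUs above, 4786 to 4948 below, 8 and 1 of the 10 genes, and a median of 1.66 to 1.69. Replicates 1 and 2 of both assays share only a number (correlation of their deviations -0.011), and the fit with the replicate number as a block gave 3919 above and 4847 below, with 8 and 1 of the 10 genes. Lengths from GRCh37, the transcript counted and the bases removed for PRO-seq set the size of each ratio, and depth limits DNAJB9, with 104 PRO-seq reads.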
